A study of Mus musculus with 72 samples.

Results

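Granulosa and luteal cell genes were followed in the ovaries of F2 daughters sired by IVF-conceived or naturally conceived males, with the testes and livers of the same study beside them. The 10 genes were a listed set, *Cyp19a1*, *Inha*, *Inhba*, *Foxl2*, *Fst*, *Ptgfr*, *Akr1c18*, *Pgr*, *Prlr* and *Sfrp4*, matched by symbol among the 35976 gene symbols of the ovary count table, and all 10 were found and tested there. Granulosa cells surround the oocyte in the follicle, make oestradiol from androgen, and secrete inhibin, activin and follistatin, which tune the release of follicle-stimulating hormone. After ovulation they turn into luteal cells, which make progesterone under the drive of prolactin and luteinizing hormone until prostaglandin F2alpha and progesterone breakdown end the life of the corpus luteum. Because these steps follow the oestrous cycle, ovaries taken at different stages are known to differ in such genes.

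The F1 males came from CF-1 females and SJL/B6 males heterozygous for GFP. In the IVF group, eggs of superovulated CF-1 females were fertilized in vitro, cultured to the blastocyst stage and transferred to pseudopregnant CF-1 females, whereas naturals came from mating in the natural cycle without transfer. F1 males of each group were mated with CF-1 females to give the F2 offspring, so that F2 IVF mice carry IVF exposure through the sire alone and all F2 groups share conception in vivo. Superovulation, culture and transfer came together in the IVF group and cannot be told apart. Ovaries of F2 daughters at 12 weeks were sequenced as 4 Natural and 5 IVF libraries. The other libraries were F1 testes at E18.5 (4 Natural, 6 IVF), 12 weeks (5 and 5) and 39 weeks (4 and 6), F2 testes at 12 weeks (5 and 7), and F2 livers at 12 weeks from daughters (5 and 6) and sons (5 and 5). Neither the labels nor the methods give the cycle stage at collection, and where sibs or litters were shared is not labelled, so p-values measure the spread between these libraries.

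Total counts per ovary library ranged from 17372532 to 49192804 in naturals and from 11489461 to 16553139 in the IVF group, and each value below is in CPM, counts scaled to the library size by the TMM method. The lowest count of any member in an ovary library was 16, for *Pgr*, so counting error was small beside the spread between ovaries for the other members. The ovary label fitted its markers, with *Zp2*, a zona pellucida gene of the oocyte, at a mean of 62.9 CPM in naturals and *Amh*, made by granulosa cells of growing follicles, at 263 CPM. Oviduct genes were present as well. In Natural 2 the oviduct genes *Ovgp1* and *Foxj1* reached 1070 and 124 CPM, against 1.57 to 70.4 and 0.256 to 9.05 CPM in the other ovaries. The summed level of 12 surface epithelium and oviduct markers was 1655 CPM in Natural 2, 297 CPM in IVF 1 and 64.7 to 122 CPM in the other 7 libraries. IVF 1 also had the highest summed level of 7 adipocyte markers, 158 CPM against 16.0 to 44.7 CPM. Log2 fold changes of members are given with and without these libraries where that moves them.

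Per kilobase of exon the members spanned a wide range in the ovary. *Akr1c18* had the highest level, 3072 ± 1255 CPM per kilobase (SD, n = 9 libraries), followed by *Sfrp4* at 1421 ± 371, *Inha* at 927 ± 127 and *Ptgfr* at 213 ± 37.2. *Prlr* stood at 101 ± 21.2, *Foxl2* at 71.1 ± 11.1, *Inhba* at 51.5 ± 18.1, *Fst* at 35.1 ± 8.03, *Cyp19a1* at 13.2 ± 7.52 and *Pgr* at 0.591 ± 0.793 CPM per kilobase. In this order only *Inha* against *Ptgfr* and *Ptgfr* against *Prlr* were neighbours whose ranges did not overlap. Together the members took 1.06% (Natural 2) to 1.83% (IVF 2) of the scaled counts of a library.

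In the mouse genome (GRCm38, mm10) 4 members are on chromosome 13, at chr13:4132615-4150646 (*Akr1c18*, minus strand), chr13:16004256-16031609 (*Inhba*, plus), chr13:19623175-19632825 (*Sfrp4*, plus) and chr13:114452262-114458989 (*Fst*, minus). *Cyp19a1* (chr9:54165937-54268164, minus), *Foxl2* (chr9:98955607-98958126, plus) and *Pgr* (chr9:8898900-8968611, plus) are on chromosome 9. *Inha* is at chr1:75507077-75510366 (plus), *Ptgfr* at chr3:151798610-151837528 (minus) and *Prlr* at chr15:10177238-10349190 (plus). RefSeq promoter windows (GRCm38.p6, 250 bases before to 50 after a transcript start) were held for 8 of the 10 genes, 3 windows each for *Cyp19a1* and *Prlr*, whose counts do not tell the starts apart. The nuclear receptor motif AGGTCA, searched on both strands, was in windows of *Cyp19a1*, *Inha*, *Ptgfr* and *Akr1c18* and in 16.3% of all 32851 windows. The TATA element TATAAA, likewise on both strands, was in windows of *Cyp19a1*, *Inhba* and *Pgr* and in 13.6% of all windows. Windows are printed for the members with a single start that varied most between ovaries, *Inhba*, *Akr1c18* and *Pgr*, and for *Ptgfr*, the receptor through which prostaglandin F2alpha acts on luteal cells. The capitals mark the motifs, which begin at -91 in *Inhba* (chr13:16011601-16011900, plus strand), at 28 in *Akr1c18* (chr13:4150597-4150896, minus), at -212 in *Pgr* (chr9:8899583-8899882, plus, as the complement) and at -170 (complement) and 3 in *Ptgfr* (chr3:151837479-151837778, minus), counted from the start as base 1.
Inhba: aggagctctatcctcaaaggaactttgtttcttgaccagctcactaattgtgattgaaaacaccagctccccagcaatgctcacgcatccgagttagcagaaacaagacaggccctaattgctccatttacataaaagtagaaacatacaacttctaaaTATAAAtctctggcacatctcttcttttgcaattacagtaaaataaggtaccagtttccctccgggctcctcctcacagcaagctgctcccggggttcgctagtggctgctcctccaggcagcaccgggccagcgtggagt
Akr1c18: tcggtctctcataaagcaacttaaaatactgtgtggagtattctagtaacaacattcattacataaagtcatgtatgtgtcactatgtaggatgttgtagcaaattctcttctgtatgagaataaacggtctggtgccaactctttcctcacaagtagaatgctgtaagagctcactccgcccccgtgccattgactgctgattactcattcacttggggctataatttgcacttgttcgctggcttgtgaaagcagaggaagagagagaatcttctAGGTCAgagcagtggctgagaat
Pgr: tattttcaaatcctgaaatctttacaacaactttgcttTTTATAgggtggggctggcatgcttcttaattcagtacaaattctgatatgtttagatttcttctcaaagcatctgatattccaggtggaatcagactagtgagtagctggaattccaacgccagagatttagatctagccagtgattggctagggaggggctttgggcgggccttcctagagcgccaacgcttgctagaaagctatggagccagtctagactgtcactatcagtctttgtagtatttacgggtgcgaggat
Ptgfr: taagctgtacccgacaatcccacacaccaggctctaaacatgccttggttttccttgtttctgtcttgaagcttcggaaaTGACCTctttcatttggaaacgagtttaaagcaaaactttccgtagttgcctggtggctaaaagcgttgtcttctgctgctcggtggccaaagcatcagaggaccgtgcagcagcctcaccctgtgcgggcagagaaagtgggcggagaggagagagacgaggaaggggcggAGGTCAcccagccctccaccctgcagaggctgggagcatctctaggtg

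The first question was whether any of these genes differed between ovaries of the IVF group and of naturals. In the test across all 16502 genes (edgeR quasi-likelihood, Benjamini-Hochberg adjustment, called at an adjusted p under 0.05 and over 1.5-fold) 0 genes were called, 0% of those tested, and hence 0 of the 10 members. At an unadjusted p under 0.05 there were 1757 genes, 10.6% of those tested, and 1 of the 10 members. DESeq2 called 91 genes, of which 0 were members, with 9 members given a p. Of the members, 6 had a log2 fold change above 0 and 4 below it, with a median of 0.19 against -0.01 over all genes tested.

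*Prlr*, the prolactin receptor, through which prolactin maintains the rodent corpus luteum, was the member at an unadjusted p under 0.05. It had 1464, 858, 1453 and 1345 CPM in naturals and 1752, 1765, 1976, 1669.5 and 1717 CPM in the IVF group. Every IVF ovary lay above every natural ovary, a pattern shown by 601 of the 16502 genes (3.64%) in either direction and, among members, by *Prlr* alone. The means were 1280 ± 286 and 1776 ± 118 CPM (SD, n = 4 and 5), and the log2 fold change was 0.47 (SE 0.15, edgeR adjusted p = 0.401, adjusted p from 0.0954 to 0.672 over the alternatives). Without Natural 2, the lowest library and the one highest in oviduct markers, it was 0.32 (adjusted p = 0.558), and without both Natural 2 and IVF 1 it was 0.33 (adjusted p = 0.672). The part of other tissue in the difference was otherwise not tested. In whole ovaries, fewer cells of a type and less RNA per cell cannot be told apart.

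*Sfrp4*, a secreted WNT antagonist that is high in corpora lutea, had 5498, 3652, 4919 and 5893 CPM in naturals and 6985, 7811, 8146, 4184 and 6365 CPM in the IVF group. All IVF ovaries other than IVF 4 were above all naturals. The log2 fold change of 0.42 (SE 0.20, adjusted p = 0.488) did not pass the test, and it was 0.30 without Natural 2, the lowest ovary, and 0.29 without both Natural 2 and IVF 1. *Ptgfr* gave 1677, 1009.9, 1229 and 1347 CPM against 1715, 1758, 1557, 1385 and 1296 CPM. Its groups overlapped, with a log2 fold change of 0.23 (SE 0.15, adjusted p = 0.592) that was 0.12 without Natural 2, again the lowest, and 0.08 without both libraries.

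*Akr1c18* encodes 20alpha-hydroxysteroid dehydrogenase, which inactivates progesterone when corpora lutea regress. Its levels were 3860.4, 2920.4, 3151 and 6739 CPM in naturals and 4969, 4432, 3150.3, 2555 and 1596 CPM in the IVF group. The highest library was a natural and the lowest an IVF ovary, but the groups overlapped over most of their range, and the log2 fold change of -0.32 (SE 0.35, adjusted p = 0.766) became 0.01 without Natural 4 and -0.64 without both Natural 2 and IVF 1. *Pgr*, the progesterone receptor, which granulosa cells switch on for a short time before ovulation, was low, with 2.33, 22.2, 3.27 and 2.65 CPM in naturals and 8.17, 1.5, 1.02, 1.86 and 2.44 CPM in the IVF group. Its highest values were those of Natural 2 and IVF 1, the ovaries highest in oviduct markers. The log2 fold change was -1.34 (SE 0.85, adjusted p = 0.586), but 0.14 without Natural 2, and -0.69 without both libraries (adjusted p = 0.681). The part of oviduct in the *Pgr* values was otherwise not tested.

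**Figure D1:**
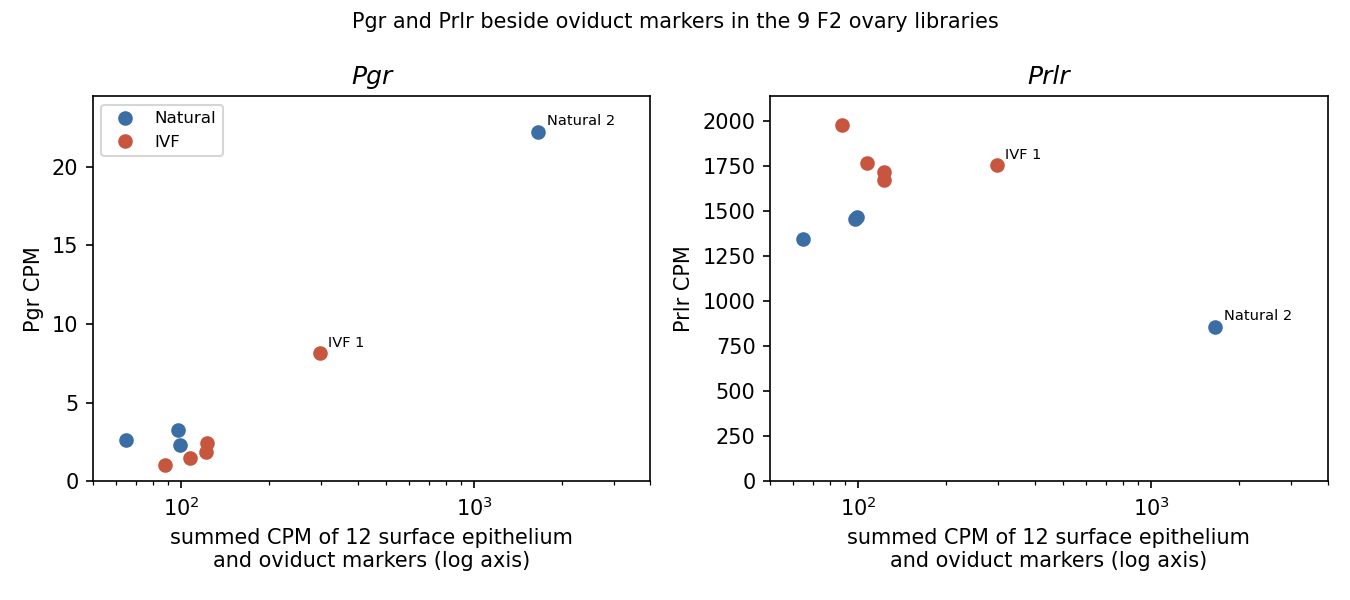
CPM of *Pgr* and *Prlr* (y axis) against the summed CPM of 12 surface epithelium and oviduct markers (x axis, log scale), 1 point per F2 ovary library, coloured by group. Natural 2, at 1655 CPM of these markers, had the highest *Pgr* (22.2 CPM) and the lowest *Prlr* (858 CPM), and IVF 1, at 297 CPM, the next highest *Pgr* (8.17 CPM).

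Among the genes of the follicle, *Cyp19a1* encodes aromatase, the enzyme that makes oestradiol in granulosa cells of large follicles. It had 48.2, 66.4, 5.92 and 81.9 CPM in naturals and 54.1, 131.6, 58.5, 38.5 and 53.4 CPM in the IVF group. Natural 3 stood far below the other 8 ovaries and IVF 2 above them, and the log2 fold change of 0.41 (SE 0.64, adjusted p = 0.835) became 0.05 without Natural 3 and 0.01 without IVF 2. *Inhba*, the betaA subunit shared by inhibin A and activin A, had 343, 314, 106 and 459 CPM against 225, 479, 402, 292 and 345 CPM. Natural 3 was again the lowest and IVF 2 the highest, and the log2 fold change of 0.19 (SE 0.38, adjusted p = 0.880) became -0.09 without Natural 3.

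*Inha*, the alpha subunit that makes a dimer an inhibin, was steady, with 1286, 1439, 1279 and 1763 CPM in naturals and 1087, 1492, 1373, 1278 and 1314 CPM in the IVF group. The groups overlapped, and the log2 fold change of -0.14 (SE 0.12, adjusted p = 0.690) became -0.03 without Natural 4, the highest ovary. *Fst*, follistatin, which binds and neutralizes activin, had 158, 161, 165 and 196 CPM against 96.1, 231, 147, 147 and 150.5 CPM, and the IVF group held both the lowest and the highest ovary (log2 fold change -0.14, SE 0.20, adjusted p = 0.825, but -0.02 without IVF 1, its lowest ovary, and -0.33 without IVF 2, its highest). *Foxl2*, the transcription factor that keeps granulosa cell identity, had 224, 199, 199.8 and 236 CPM against 217, 189.6, 261, 302 and 254 CPM. Its groups overlapped too (log2 fold change 0.19, SE 0.13, adjusted p = 0.603, 0.10 without IVF 4). Without both Natural 2 and IVF 1 the log2 fold changes were 0.64 for *Cyp19a1*, 0.32 for *Inhba*, -0.08 for *Inha*, -0.04 for *Fst* and 0.19 for *Foxl2*.

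The spread between ovaries was then described, as the set of genes was chosen with the oestrous cycle in mind. It was measured as the SD of log2 CPM within groups, pooled over both. *Pgr* had an SD of 1.29, larger than in 98.1% of the genes tested, and *Cyp19a1* 1.24, larger than in 97.9%. *Inhba* followed with 0.68 (percentile 88.8) and *Akr1c18* with 0.61 (percentile 85.9). *Fst* and *Sfrp4* had 0.35 each, *Prlr* and *Ptgfr* 0.25 each, *Foxl2* 0.21 and *Inha* 0.19, against a median of 0.23 over all genes tested. Thus 8 of the 10 members were above the median gene by this measure, while the general granulosa genes *Inha* and *Foxl2* were below it. *Prlr* and *Ptgfr* were only just above it. By the biological coefficient of variation of edgeR, which sets counting error aside, they were at percentiles 45.2 and 45.8, with 6 members above the middle. These percentiles do not allow for the level of a gene. Set against the trend of the coefficient with level, *Prlr* was at 0.997 and *Ptgfr* at 1.01 times the trend. The highest ovary exceeded the lowest 22.2-fold for *Cyp19a1*, 21.7-fold for *Pgr*, 4.49-fold for *Inhba* and 4.22-fold for *Akr1c18*, but 1.62-fold for *Inha* and 1.59-fold for *Foxl2*.

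Single libraries carried much of this spread. Without Natural 3 the SD of *Cyp19a1* was 0.58 and that of *Inhba* 0.38. Without both oviduct-rich libraries the SD of *Pgr* was 0.41, and without Natural 2 alone that of *Prlr* was 0.09. The spread within the IVF group and within naturals was compared by an exact two-sided permutation test of the mean deviation from the group median over all 126 regroupings. For *Cyp19a1* the mean deviation was 1.06 in naturals and 0.38 in the IVF group (exact p = 0.437), and for *Fst* 0.09 and 0.26 (exact p = 0.317). Without Natural 3 the IVF group minus naturals changed sign for *Cyp19a1*, from -0.68 to 0.13 (exact p = 0.839), and without IVF 1 it went from 0.17 to 0.08 for *Fst* (exact p = 0.571). The lowest exact p over the 10 members was 0.278, for *Foxl2*, and the lowest adjusted p was 0.853, so a difference in spread between the groups was not detectable with 4 and 5 ovaries.

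**Figure D2:**
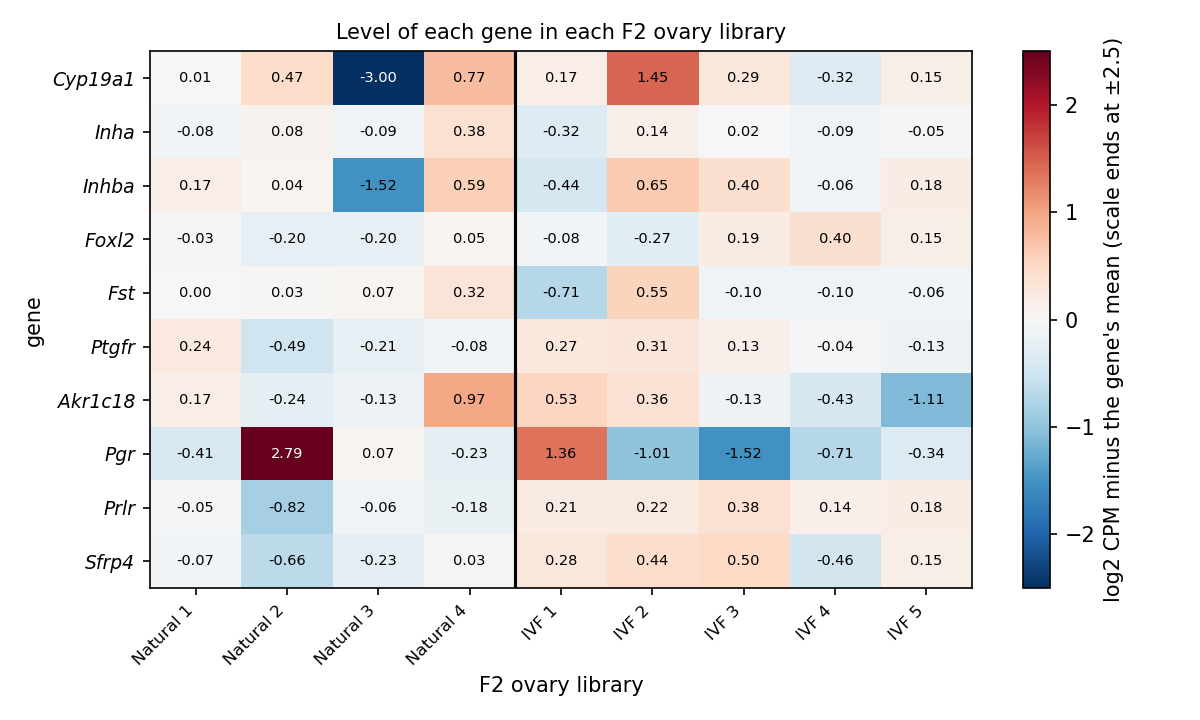
Log2 CPM of each gene (rows) minus that gene's mean over the 9 F2 ovary libraries (columns, with naturals left of the line and IVF right of it), with the colour scale ending at 2.5 in each direction. Natural 3 is low in *Cyp19a1* (-3.00) and *Inhba* (-1.52), and Natural 2 is high in *Pgr* (2.79) and low in *Prlr* (-0.82).

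Whether members went up and down together between ovaries was examined over all 45 pairs. The genes of oestradiol and activin, *Cyp19a1* and *Inhba*, had the highest Pearson correlation of log2 CPM, r = 0.93 over 9 libraries (exact permutation p = 0.00231, adjusted p = 0.104), with a Spearman rho of 0.77 (exact permutation p = 0.0214, adjusted p = 0.241). Their r was 0.93 on deviations from the group means (adjusted p = 0.0362), 0.98 within the 4 naturals and 0.70 within the 5 IVF ovaries. Without Natural 3 and IVF 2, the ovaries farthest from the median of *Cyp19a1*, r fell to 0.54, so that the relation rests on those ovaries.

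*Prlr* and *Sfrp4* had r = 0.77 (exact permutation p = 0.00775, adjusted p = 0.168) and rho = 0.85 (exact permutation p = 0.00607, adjusted p = 0.186), and r = 0.71 without Natural 2 and Natural 4. *Ptgfr* had r = 0.76 with *Prlr* (exact permutation p = 0.0167) and r = 0.76 with *Sfrp4* (exact permutation p = 0.0187), each with an adjusted p of 0.168, and rho = 0.72 and 0.67 (adjusted p = 0.323 and 0.331). Both relations of *Ptgfr* rested on Natural 2 and IVF 2, without which r was 0.35 and 0.45. *Inha* and *Fst* had r = 0.82 (exact permutation p = 0.0186, adjusted p = 0.168, rho = 0.68, adjusted p = 0.323), and 0.69 without Natural 4 and IVF 1. *Pgr* and *Prlr* went in opposite directions, with r = -0.78 (exact permutation p = 0.0266, adjusted p = 0.20, rho = -0.68, adjusted p = 0.323), and -0.86 without Natural 2 and IVF 1. In all, 6 of 45 pairs had an exact p under 0.05 and 0 passed adjustment. Without Natural 2 and IVF 1, *Cyp19a1* and *Inhba* passed (r = 0.99, adjusted p = 0.00893).

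The genes most like each member were taken as the 3 with the highest r over the 9 libraries among 12080 genes with a mean of at least 5 CPM, as a description. For *Cyp19a1* they were *Ddit4* (r = 0.96), *Inhba* (0.93) and *Csrp2* (0.93), and for *Inhba* they were *Ddit4* (0.96), *Rabepk* (0.94) and *Cyp19a1* (0.93). *Ddit4*, a stress-induced inhibitor of mTOR signalling, ran from 25.5 CPM in Natural 3 to 125.6 CPM in IVF 2. For *Pgr* they were *Rtn1* (r = 0.97), the epithelial cadherin gene *Cdh1* (0.95) and *Gcnt2* (0.95), all highest in Natural 2, where *Rtn1* reached 58.0 CPM and *Cdh1* 86.8 CPM. For *Prlr* they were *Me1* (0.97), which encodes malic enzyme, *Syt12* (0.97) and *Tbc1d9b* (0.97), all lowest in Natural 2 and highest in IVF 3. For *Sfrp4* they were *Prkx* (0.97), *Gpr141* (0.95) and *Stard3nl* (0.93), and for *Ptgfr* they were *Ube3c* (0.97), *Mtmr10* (0.96) and *Btbd1* (0.96). *Akr1c18* was nearest to *Otud6b* (0.94), *Chd9* (0.93) and *Col4a3bp* (0.92), *Foxl2* to *Rgs10* (0.97), *Ndufaf4* (0.96) and *Gm9899* (0.94), *Inha* to *Ddx46* (0.91), *Zfp219* (0.89) and *Rbfox1* (0.88), and *Fst* to *Cep162* (0.93), *Gm14321* (0.92) and *Adamts6* (0.90). Such values share the same 9 libraries and their depth, and the highest of 12080 correlations is high in any data of this size.

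Other genes of the same pathways were set beside the members, with 0 called in any list. The lists were chosen with earlier results of these data known, and genes of a list are not independent in the same 9 ovaries. Their counts and shares are thus a description and not a test. Of 20 luteal genes, 19 had a log2 fold change above 0 and 10 an unadjusted p under 0.05 (50% against 10.6% of all genes), with a median of 0.53 against -0.01 over all genes. Without Natural 2 these were 18 genes above 0, 6 at an unadjusted p under 0.05 (30% against 7.67% of all genes) and a median of 0.43, and without both Natural 2 and IVF 1 they were 17, 7 (35% against 7.41%) and 0.42, an alternative chosen after seeing the data. Markers of other cells moved in the same ovaries. The summed level of 14 oocyte markers was 490.5 to 548 CPM in naturals and 326 to 485 CPM in the IVF group, with no overlap, and that of 12 macrophage and leukocyte markers was 259 to 351 and 234 to 280 CPM. All 9 endothelial markers had a log2 fold change above 0 (median 0.23), and 7 had one without Natural 2 (median 0.15). Their summed level was 326 to 513 CPM in naturals and 439 to 585 CPM in the IVF group. Of 8 theca and interstitial cell markers, 2 were above 0 and 6 below (median -0.38). Their summed level went the other way, with 4773 to 8432 CPM (median 8120) in naturals and 6264 to 10472 CPM (median 9609) in the IVF group. The part of these markers in the luteal values was not tested. *Scarb1*, the receptor that takes up HDL cholesterol for steroid synthesis, had 1991, 1329.5, 2173 and 1996 CPM in naturals and 3569, 3182, 3638, 2775 and 3166 CPM in the IVF group (log2 fold change 0.80, SE 0.15, adjusted p = 0.214). *Cyp11a1*, which makes pregnenolone from cholesterol, had 6875 ± 1046 and 10592 ± 2005 CPM (SD, n = 4 and 5, log2 fold change 0.62, adjusted p = 0.340). As for *Prlr*, all IVF ovaries were above all naturals in *Scarb1*, *Cyp11a1* and *Sgk1*. *Sgk1* is named because of this pattern, and had the lowest adjusted p of the list, 0.0577. The lowest adjusted p of the list was 0.109 without Natural 2, 0.134 without IVF 1 and 0.194 without both.

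*Hsd17b7*, an enzyme of luteal oestradiol and cholesterol synthesis also called prolactin receptor-associated protein, was high in a pair of IVF ovaries, 748 CPM in IVF 4 and 770.3 CPM in IVF 5, against 43.0 to 159 CPM in the other 7 (log2 fold change 2.35, SE 0.80, adjusted p = 0.420). The same ovaries were the highest in *Lhcgr*, the receptor of luteinizing hormone, with 444 and 355 CPM against 53.3 to 231 CPM, and they were the lowest in *Akr1c18*. *Cyp17a1*, which makes androgen in theca cells, was lowest in Natural 3 (64.1 CPM), IVF 4 (88.6 CPM) and IVF 5 (159.6 CPM), against 391 to 1125 CPM in the others. The ovary lowest in *Cyp19a1* was thus also the lowest in *Cyp17a1*. The summed level of the 8 steroidogenic genes listed as Leydig cell markers, which ovarian theca and luteal cells also express, was 11855 to 22384 CPM in naturals and 22486 to 31249.6 CPM in the IVF group.

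Of 20 follicular granulosa genes, 7 had a log2 fold change above 0 and 13 below it (median -0.07), among them *Amh* at -0.50 (SE 0.17, adjusted p = 0.416). In that list 3 had an unadjusted p under 0.05 (15% against 10.6% of all genes). Of 17 genes of activin, inhibin and follistatin signalling, 6 were above 0 and 11 below (median -0.04, 4 at an unadjusted p under 0.05, or 23.5%). The oocyte ligands *Gdf9* (-0.37, SE 0.11, adjusted p = 0.391) and *Bmp15* (-0.47, SE 0.11, adjusted p = 0.326) were in that list, with all IVF ovaries below all naturals. *Inhbb*, the betaB subunit, had 291 ± 68.6 and 376 ± 143 CPM (log2 fold change 0.37, adjusted p = 0.654). Of 11 genes of prolactin receptor signalling, 8 were above 0 and 3 below (median 0.12). At an unadjusted p under 0.05 there were 2 (18.2%), 0 without Natural 2 and 1 without both oviduct-rich libraries (9.09% against 7.41% of all genes). *Cish*, a STAT5 target that damps the signal, was at 0.86 (SE 0.45, adjusted p = 0.528) and *Jak2*, the kinase bound to the receptor, at -0.11 (SE 0.10).

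Of 16 genes of prostaglandin synthesis, transport and reception, 8 were above 0 and 8 below (median -0.05, but 0.06 without Natural 2), and of 14 of oestrogen and progesterone synthesis and reception 9 were above and 5 below (median 0.02). *Ptgs2*, the inducible cyclooxygenase of ovulation, was at most 4.55 CPM, in a natural. Of 14 tested ovulatory and cumulus genes, 6 were above 0 and 8 below (median -0.15, but 0.03 without Natural 2), and of 16 WNT genes 8 were above and 8 below (median -0.02). *Wnt4*, which supports the female gonad, had 63.1, 61.5, 60.4 and 56.0 CPM in naturals and 83.4, 68.0, 102, 129 and 145.8 CPM in the IVF group, with no overlap (log2 fold change 0.81, SE 0.20, adjusted p = 0.340). All 19 cell cycle genes were below 0, with a median of -0.28 and 8 at an unadjusted p under 0.05 (42.1% against 10.6% of all genes). Without Natural 2 it was 6 (31.6% against 7.67%), and without both Natural 2 and IVF 1 it was 2 (10.5% against 7.41%), with all 19 still below 0. For example, *Mki67* was at -0.33 (SE 0.14, adjusted p = 0.458).

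The testis served as a gonad without granulosa cells, in which the Sertoli cell takes their place as the source of inhibin. In fetal F1 testes at E18.5, 9 of the 10 genes were tested, and 0 were called beside 34 of 15406 genes (0.221%). At an unadjusted p under 0.05 there were 3 of the 9 members and 2722 of all genes (17.7%). *Inhba*, which fetal Leydig cells make as activin A to drive Sertoli cell growth, had 716, 181, 576 and 611 CPM in naturals and 334, 145, 272, 246, 199 and 299 CPM in the IVF group. Natural 2 fell among the IVF testes, and the other naturals were above all of them. The log2 fold change was -1.06 (SE 0.37, adjusted p = 0.188), and -1.35 without Natural 2, when *Inhba* was called (adjusted p = 0.0210). Depth differed with the group, 2904727 to 4869139 counts in naturals and 8500054 to 15745480 in the IVF group, and markers differed as well, since the summed Leydig cell markers were 1635 and 1881 CPM in Natural 1 and Natural 2 against 2216 to 5320 CPM in the other testes. Their part in the result was not tested.

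*Prlr*, which Leydig cells express, had 130.3, 154, 183 and 103 CPM in naturals and 176, 168, 191, 240.2, 180 and 211 CPM in the IVF group at E18.5 (log2 fold change 0.44, SE 0.14, adjusted p = 0.134). *Inha* had 544 to 972 CPM in naturals and 425 to 660 CPM in the IVF group (log2 fold change -0.36, SE 0.16, adjusted p = 0.265, -0.20 without Natural 1). The summed level of 10 Sertoli cell markers was 2084 to 3055 CPM in naturals and 1521 to 2228 CPM in the IVF group, and the library highest in *Inha*, Natural 1, also carried the liver markers at 473 CPM against at most 16.2 CPM elsewhere. The part of these markers in the *Inha* values was not tested. *Foxl2*, a factor of the ovary rather than the testis, was between 0.666 and 11 CPM, highest in IVF 2 (log2 fold change 1.28, SE 0.69, adjusted p = 0.354, 0.59 without that testis). *Cyp19a1*, *Fst*, *Ptgfr*, *Pgr* and *Sfrp4* were at most 11.5 CPM in each fetal testis, with log2 fold changes of 0.59, 0.02, -0.28, -0.14 and 0.14, and *Akr1c18* had at most 3 counts in any of them.

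In adult testes *Cyp19a1*, *Inha* and *Prlr* were tested at each age, with *Fst* at 12 weeks in both generations, and 0 of them were called. The genes called were 40 of 20113 (0.199%) in F1 testes at 12 weeks, 2 of 20083 (0.00996%) at 39 weeks and 196 of 21454 (0.914%) in F2 testes. *Cyp19a1*, which germ cells and Leydig cells of the adult testis express, had 8.26 ± 1.60 and 9.62 ± 1.36 CPM in naturals and the IVF group at 12 weeks (SD, n = 5 and 5), 7.66 ± 1.59 and 9.18 ± 1.67 CPM at 39 weeks (n = 4 and 6), and 7.49 ± 1.43 and 6.71 ± 0.733 CPM in F2 testes (n = 5 and 7). *Inha* was between 31.9 and 75.6 CPM and *Prlr* between 14.8 and 59.5 CPM in adult testes. Their log2 fold changes were 0.17 and 0.05 at 12 weeks, 0.10 and 0.09 at 39 weeks, and -0.07 and -0.05 in F2 testes, with adjusted p-values of 0.506 or more. *Fst* had log2 fold changes of 0.22 (SE 0.49) and 0.36 (SE 0.30) in F1 and F2 testes at 12 weeks.

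**Figure D3:**
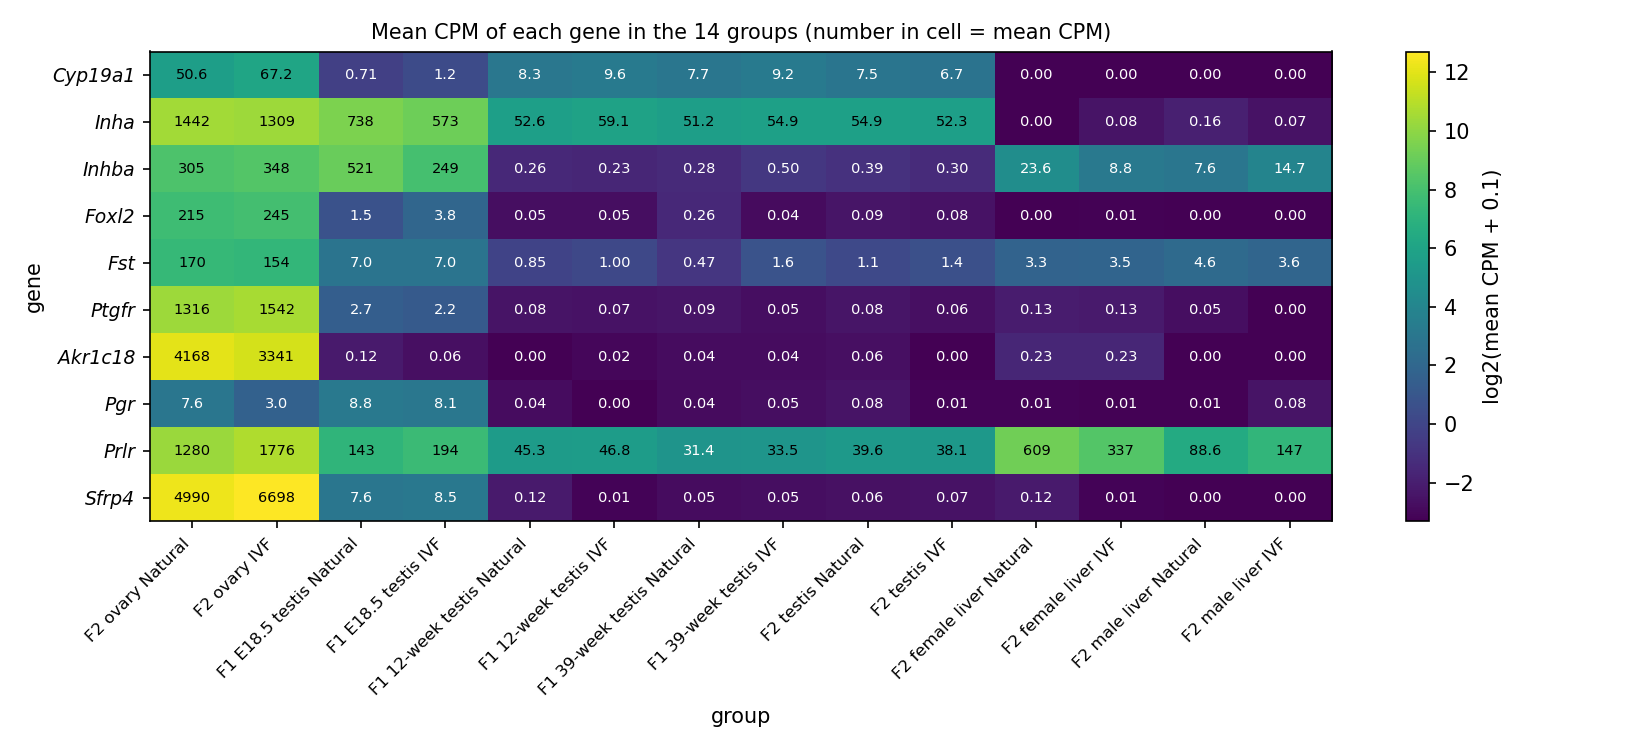
Mean CPM of each gene (rows) in the 14 groups of the study (columns), ovary, testes and livers, naturals beside the IVF group, with the mean CPM in each cell, the colour on a log2 scale, and each tissue and age scaled on its own. The genes stand highest in the ovary, other than *Inhba* (521 CPM) and *Pgr* (8.75 CPM), which in E18.5 testes of naturals are above ovaries of naturals (305 and 7.62 CPM).

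Set against F2 testes of naturals, *Cyp19a1*, *Inha*, *Prlr* and *Fst* were called higher in ovaries of naturals. This direction and call were shared by 8113 of 22389 genes (36.2%), while 81.9% were called in either direction. The other members did not pass the filter in F2 testes alone and entered this comparison through the ovary, where they are high. Their direction was thus set by the filter and is not counted. The log2 difference was 2.36 (SE 0.61, adjusted p = 0.00622) for *Cyp19a1*, 4.31 (SE 0.10, adjusted p = 1.728e-12) for *Inha*, 4.63 (SE 0.18, adjusted p = 1.875e-10) for *Prlr* and 6.90 (SE 0.23, adjusted p = 6.427e-11) for *Fst*. *Akr1c18*, *Sfrp4*, *Ptgfr*, *Pgr* and *Foxl2* had 8 to 12 counts over the 5 testis libraries together, and *Inhba* had 0.344 to 0.664 CPM in them, so no fold is given. With at least 10 counts required in every library 4 members were left to be called. The testes and ovaries were sequenced as separate tables, so organ and table cannot be told apart.

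The effect of conception in F2 ovaries was compared with that in F2 testes by an interaction test over 23462 genes, of which 83 were called (0.354%), 0 of them members. The median log2 difference over all 23462 genes was -0.13, but -0.01 with DESeq2 size factors, when 51 genes and 0 members were called. The differences below thus depend on the scaling. For *Prlr* the effect was larger in the ovary by 0.40 on the log2 scale (SE 0.18, edgeR adjusted p = 0.300). For *Fst* it was lower by 0.61 (log2 difference -0.61, SE 0.36, adjusted p = 0.433), and for *Cyp19a1* and *Inha* the differences were 0.45 (SE 0.62) and -0.19 (SE 0.12). The data do not show that any of these genes responded differently in the ovary and the testis.

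In F2 livers *Prlr*, *Inhba* and *Fst* were the members tested. The liver of female rodents is known for high *Prlr*, and here daughters of naturals had 510.2, 414, 716, 655 and 748 CPM against 298, 345, 321, 379, 381 and 300.4 CPM in the IVF group. All IVF livers lay below all naturals, in a tissue where 3685 of 12525 genes (29.4%) did not overlap in either direction, and the log2 fold change of *Prlr* was -0.85 (SE 0.16, adjusted p = 4.063e-04). *Inhba* had 46.3, 8.53, 21.7, 16.1 and 25.2 CPM against 12.9, 9.47, 8.63, 9.59, 6.72 and 5.40 CPM (log2 fold change -1.41, SE 0.35, adjusted p = 0.00478). Thus 2 of 3 tested members fell in the IVF group of daughters, where 4935 of 12525 genes (39.4%) were called, and the summed hepatocyte markers were 169602 to 248924 CPM in naturals and 110577 to 127967 CPM in the IVF group. Red blood cell markers (456 to 754 against 153 to 376 CPM) and smooth muscle and stroma markers (222 to 279 against 98.8 to 208 CPM) were also lower in the IVF group with no overlap. Total counts were 3947645 to 34149676 in naturals and 13815244 to 90441392 in the IVF group. The part of these markers and of depth in the fall was not tested.

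In livers of sons *Prlr* had 47.3, 101.7, 108, 84.8 and 101.0 CPM in naturals and 129, 195, 193, 99.8 and 118 CPM in the IVF group (log2 fold change 0.71, SE 0.24, adjusted p = 0.0308). *Inhba* had 5.34, 8.91, 12.9, 4.51 and 6.56 CPM against 18.0, 18.7, 16.9, 7.61 and 12.3 CPM (log2 fold change 0.88, SE 0.32, adjusted p = 0.0436). Both rose where 3725 of 11973 genes (31.1%) were called. The calls were fragile, however. IVF 3 had 543745 counts in all and 7 counts of *Inhba*, and without it neither gene passed (adjusted p = 0.0672 for *Prlr* and 0.0613 for *Inhba*). Neither passed without Natural 1, Natural 4 or IVF 2 either, and *Inhba* alone was lost without Natural 2, Natural 5, IVF 1 or IVF 5. The hepatocyte markers moved the other way from those of daughters, 75642 to 101198 CPM in naturals and 93901 to 146159 CPM in the IVF group. Red blood cell markers were 269 to 508 and 421 to 895 CPM, smooth muscle and stroma markers 96.2 to 159.9 and 144 to 195 CPM, and total counts 10391074 to 44069283 and 543745 to 12624673. The part of markers and depth in the result was not tested.

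The interaction of conception and sex over all F2 livers, a comparison added after the data were seen, called 6913 of 13073 genes (52.9%), with *Prlr* (log2 difference of daughters minus sons -1.55, SE 0.29, adjusted p = 7.242e-05) and *Inhba* (-2.27, SE 0.51, adjusted p = 5.854e-04) among them. *Fst* was not called in daughters (0.02, SE 0.58), in sons (-0.38, SE 0.40) or in the interaction (0.40, SE 0.75). The other 7 genes were at or below 0.946 CPM in every liver. In the ovaries of the same generation the log2 fold change of *Prlr* had the sign of that in sons and not of that in daughters, although the liver and ovary effects were not compared by a test.

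**Figure D4:**
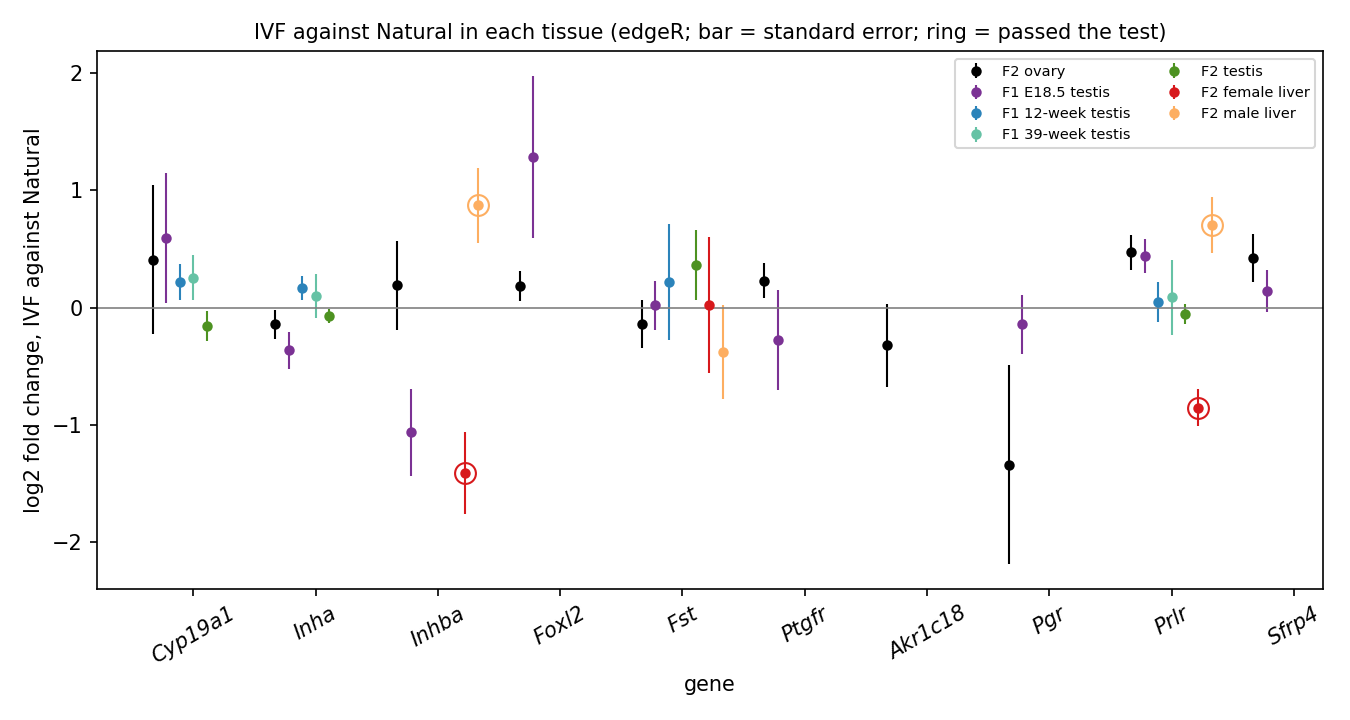
Log2 fold change of the IVF group against naturals (y axis) with its SE for each gene tested, by tissue and age, with rings on the values called. The rings are on *Prlr* and *Inhba* in the F2 livers, below 0 in daughters and above 0 in sons, and no value of the ovary or of a testis carries one.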

How the data were processed

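RNA-Seq libraries of F1 testes and of F2 ovaries, testes and livers were used, grouped by their labels. The authors deposited whole-number counts of reads per gene symbol, without normalization, and per the labels the processing used Trimmomatic 0.32, STAR 2.3.0e and featureCounts 1.5.0 on mm10. Low counts of 1 to 20 were mostly even (60.0% to 94.3% of them in a library), as when each mate of a pair is counted, so counts halved were an alternative. Intervals and floors cover counting error alone. Each table was filtered (filterByExpr), TMM-scaled and fitted alone with edgeR 4.0.16 in R 4.3.3 and IVF was compared with Natural by its quasi-likelihood F test, two-sided, with Benjamini-Hochberg adjustment over all genes tested. A gene was called at an adjusted p under 0.05 and over 1.5-fold. DESeq2 1.42.0 was the other tool. Log2 CPM used a prior count of 2. Spread and correlations were tested by exact permutation (scipy 1.17.1). Scripts were tested on simulated data. The members and gene lists were chosen with earlier results of these data known. Genes named are the members, the 3 genes nearest to each, and of each list the most abundant and those of highest and lowest fold change. Some other genes, *Scarb1* and *Sgk1* among them, are named outside this rule. In an ovary against testis fit, both tables were scaled together. The authors' own fold changes and p-values were not used. No pair of libraries agreed within sampling noise, and the closest pairs, with a chi-square per gene under 2, were summed in an added alternative. In F1 testes at 39 weeks these were Natural 1 and Natural 2 (1.54, against 13.9 to 31.9 in the other pairs of naturals). In F2 testes they were IVF 3 and IVF 4 (1.43), and Natural 1 and Natural 2 (1.85). Whether such a pair came from the same animal is not labelled. A gene of the luteal list counts in its totals and is not reported here by name.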

Additional observations from a re-analysis of the deposited data

Results flagged for a closer look

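The highest or lowest library stood apart from the rest of its group by Dixon's limit in 6 of the 72 combinations of member and group looked at, where chance alone gives about 1 in 20 groups. In F2 ovaries, *Pgr* of Natural 2 was 22.2 CPM against 2.33 to 3.27 CPM in the other naturals, and *Prlr* of the same ovary was 858 CPM against 1345 to 1464 CPM. That ovary also had the highest oviduct markers. In E18.5 testes, *Inhba* of Natural 2 was 181 CPM against 576 to 716 CPM, and *Sfrp4* of IVF 1 was 9.13 CPM against 8.14 to 8.46 CPM. In F1 testes at 39 weeks, *Cyp19a1* of Natural 3 was 10.0 CPM against 6.72 to 7.11 CPM. Natural 1 and Natural 2 of that group are a near-identical pair, so its values may not be independent, as Dixon's limit requires. In F2 testes, *Fst* of IVF 7 was 0.535 CPM against 1.19 to 1.74 CPM.

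In F2 livers the effect of conception differed between daughters and sons by the interaction test of edgeR, for *Inhba* by -2.27 on the log2 scale (adjusted p = 5.854e-04) and for *Prlr* by -1.55 (adjusted p = 7.242e-05).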

How the results depend on the processing

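Of 31 log2 fold changes and differences followed, 25 kept their sign and call in every alternative run, and 555 of 573 alternative values did. The number of members called in F2 ovaries stayed at 0 in all 17 alternatives, while the number of all genes called there was 91 with DESeq2, 2 without a filter, 2 with at least 10 counts in every library, and 0 to 3 with a library left out. With a library left out, the log2 fold change in F2 ovaries ran from -0.0901 to 0.45 for *Inhba* (below 0 without Natural 3), from -0.51 to 0.0130 for *Akr1c18* (above 0 without Natural 4) and from -2.17 to 0.14 for *Pgr* (above 0 without Natural 2). In E18.5 testes 0 to 1 members were called with a library left out. In livers of sons, where 2 were called, it was 1 with DESeq2 size factors and 0 to 2 with a library left out. It was 0 there with at least 10 counts in every library, when *Prlr* was the only member tested. With at least 10 counts in every library, 4 members were called of 4 tested in ovary against testis, and 1 of 1 tested in the interaction of conception and sex. Pairs of members that passed adjustment numbered 1 on deviations from the group means, 1 without the ovaries highest in oviduct markers (an alternative chosen after seeing the data) and 0 to 2 with a library left out.

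With the replicate number as a block, 0 members were called in F2 ovaries and *Prlr* had a log2 fold change of 0.51 (adjusted p = 0.429). The block changed no call of a member in any tissue. Deviations of libraries with the same number had r from -0.07 to 0.03 in F2 ovaries, from -0.23 to 0.30 in F1 testes at 39 weeks and from -0.22 to 0.17 in livers of daughters. In no tissue was r over 0.1 in every pair, so the numbers are taken as names. With near-identical pairs of testis libraries summed, no call of a member changed. Depth limits *Pgr*, with 16 to 450 counts per ovary, and most members in testes and livers. Small groups limit the rest.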
